A study of Homo sapiens with 16 samples.

Results

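The E2F family comprises 8 genes, E2F1 to E2F8, and their dimerization partners TFDP1 and TFDP2 encode the DP proteins. These 10 genes were taken by symbol from count tables of 58735 genes, and each symbol matched 1 gene in both tables. Poly-A RNA had been sequenced from 2 established lines of human triple-negative breast cancer, MDA-MB-231 and SUM159PT, both labelled as wild type. Cells received by lipofection either a guide RNA without a target (sgNTS) or one directed at YES1 (sgYES1), the gene of a Src-family tyrosine kinase, and were collected 48 h later. Each line and guide had 4 replicates, so there were 16 libraries in 4 groups, and the study asked how loss of YES1 bears on mitosis and the response to taxanes. Which nuclease or other effector the guides worked with was not recorded in the sources consulted. MDA-MB-231 was grown in RPMI and SUM159PT in Ham's F12 medium, so line and medium cannot be told apart. The submitters call the replicates technical, and p-values therefore measure only the spread between these samples.

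Most E2F proteins bind DNA as dimers with a DP protein and control the genes of DNA replication and of the passage from G1 into S phase. E2F1, E2F2 and E2F3 are known as activators, which the retinoblastoma protein holds inactive until cyclin-dependent kinases phosphorylate it. E2F4 and E2F5 act mainly as repressors with the pocket proteins p107 and p130 (genes RBL1 and RBL2). E2F6 represses through Polycomb-type complexes, and E2F7 and E2F8 are the atypical members, which carry a pair of DNA-binding domains and need no DP partner. E2F1, E2F2, E2F7 and E2F8 are themselves induced late in G1 or in S phase, and E2F7 and E2F8 then damp the activators.

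Promoter sequences are shown for 4 members that hold an E2F-type octamer near their start and for E2F7, which holds none and, as given below, moved against E2F1, E2F2 and TFDP1 in MDA-MB-231. E2F7 was thus picked for its direction. E2F4, E2F6 and TFDP2 also hold none and are not shown, and of these TFDP2 fell in that line while E2F4 and E2F6 were not called. RefSeq windows from 250 bases before to 50 after a start (GRCh38.p14) were on hand for 8 of the 10 genes, not for E2F5 and E2F8, and 11 windows matched them. The octamers searched on both strands were TTTCCCGC, TTTCGCGC, TTTGCCGC and TTTGGCGC. Capitals mark a match, and each sequence reads 5′ to 3′ along the strand of the gene, ending before the first annotated exon.
E2F1: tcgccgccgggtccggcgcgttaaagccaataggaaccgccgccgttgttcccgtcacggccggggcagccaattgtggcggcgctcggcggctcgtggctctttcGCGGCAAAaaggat
E2F2: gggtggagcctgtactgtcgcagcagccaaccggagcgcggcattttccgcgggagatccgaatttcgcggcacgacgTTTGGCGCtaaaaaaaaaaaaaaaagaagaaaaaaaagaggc
E2F3: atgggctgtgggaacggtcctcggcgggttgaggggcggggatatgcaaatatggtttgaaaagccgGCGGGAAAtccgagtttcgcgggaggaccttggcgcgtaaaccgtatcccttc
TFDP1: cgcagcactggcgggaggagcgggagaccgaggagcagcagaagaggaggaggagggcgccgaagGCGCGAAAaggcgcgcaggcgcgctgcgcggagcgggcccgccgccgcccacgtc
E2F7: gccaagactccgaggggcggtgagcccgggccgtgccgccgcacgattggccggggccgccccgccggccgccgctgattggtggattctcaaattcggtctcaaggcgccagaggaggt
These stretches are chr20:33686405-33686524 (minus), chr1:23531234-23531353 (minus), chr6:20401759-20401878 (plus), chr13:113584568-113584687 (plus) and chr12:77065581-77065700 (minus). A second match in E2F1, TTTGGCGC, starts 20 bases before the RefSeq start, at the last base of the stretch shown, and runs past its end. An octamer stood in 4 of the 11 windows, 1 each of E2F1, E2F2, E2F3 and TFDP1, and in 3.31% of all 35116 promoter windows. By gene that is 4 of 8, against 3.99% of 27305 genes. E2F4, E2F6, E2F7 and TFDP2 had none in these windows, which says nothing about binding elsewhere. CCAAT boxes (CCAAT, either strand) stood in 4 windows of the family, 1 each of E2F1, E2F3, E2F7 and TFDP2, and in 34.6% of all windows.

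YES1, the targeted gene, had 105 to 112 CPM (read counts scaled to library size) in sgNTS and 41.3 to 43.7 CPM in sgYES1 libraries of MDA-MB-231. In SUM159PT the ranges were 91.5 to 98.4 and 38.8 to 40.4 CPM. The exact two-sided permutation p was 0.0286 for both lines, which is the lowest value possible with groups of 4. Library totals ran from about 14352000 to 25124200 counts. In MDA-MB-231 sgNTS replicate 4, transcripts of the mitochondrial genome took 2.34% of counts against 3.81% to 5.15% in the other libraries of its group. Without that library every call of the 10 genes reported below for MDA-MB-231 held. PGR was at 0 in every library and ESR1 was at most 0.428 CPM, while ERBB2 was measured at 91.6 to 116 CPM. KRT8, KRT18 and VIM were present in both lines. EPCAM, an epithelial marker, had 8.58 to 13.6 CPM in MDA-MB-231 and at most 0.0493 CPM in SUM159PT. Of leukocyte and endothelial markers, PTPRC, CD3E and CDH5 were at or near 0 (at most 0.486 CPM), and PECAM1 had 0.522 to 3.28 CPM. PECAM1 moved with the guide in MDA-MB-231 (log2 fold change 0.83, edgeR adjusted p = 0.0306), and its part in the results was not tested.

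The family was expressed in full in both lines, and E2F1 had the highest mean per-length level in every group, although in SUM159PT sgYES1 its libraries overlapped those of E2F4, and those of E2F4 overlapped those of TFDP1. Per-length levels (CPM divided by the length of the gene in kb) were added over the 10 genes, and each gene was given as its share of that sum. In MDA-MB-231 sgNTS, E2F1 took 34.6% ± 0.648 (SD, n = 4), TFDP1 24.6% ± 0.258, E2F4 12.9% ± 0.267 and E2F7 9.61% ± 0.505. E2F3 took 6.44%, E2F8 4.07%, E2F2 2.64%, E2F6 2.59%, TFDP2 1.79% and E2F5 0.793%. Neighbours in this order did not overlap between libraries except E2F2 and E2F6. In SUM159PT sgNTS, E2F1 took 30.0% ± 0.519, TFDP1 26.6% ± 0.929 and E2F4 22.9% ± 0.814. E2F2 followed with 6.19%, then E2F3 with 4.00%, E2F7 with 3.78%, TFDP2 with 2.18%, E2F6 with 1.92%, E2F8 with 1.30% and E2F5 with 1.12%. There the pairs E2F3 and E2F7 and E2F8 and E2F5 overlapped. The scale divides by all annotated exons of a gene, and TFDP2 has the longest total of the family (11.897 kb).

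**Figure D1:**
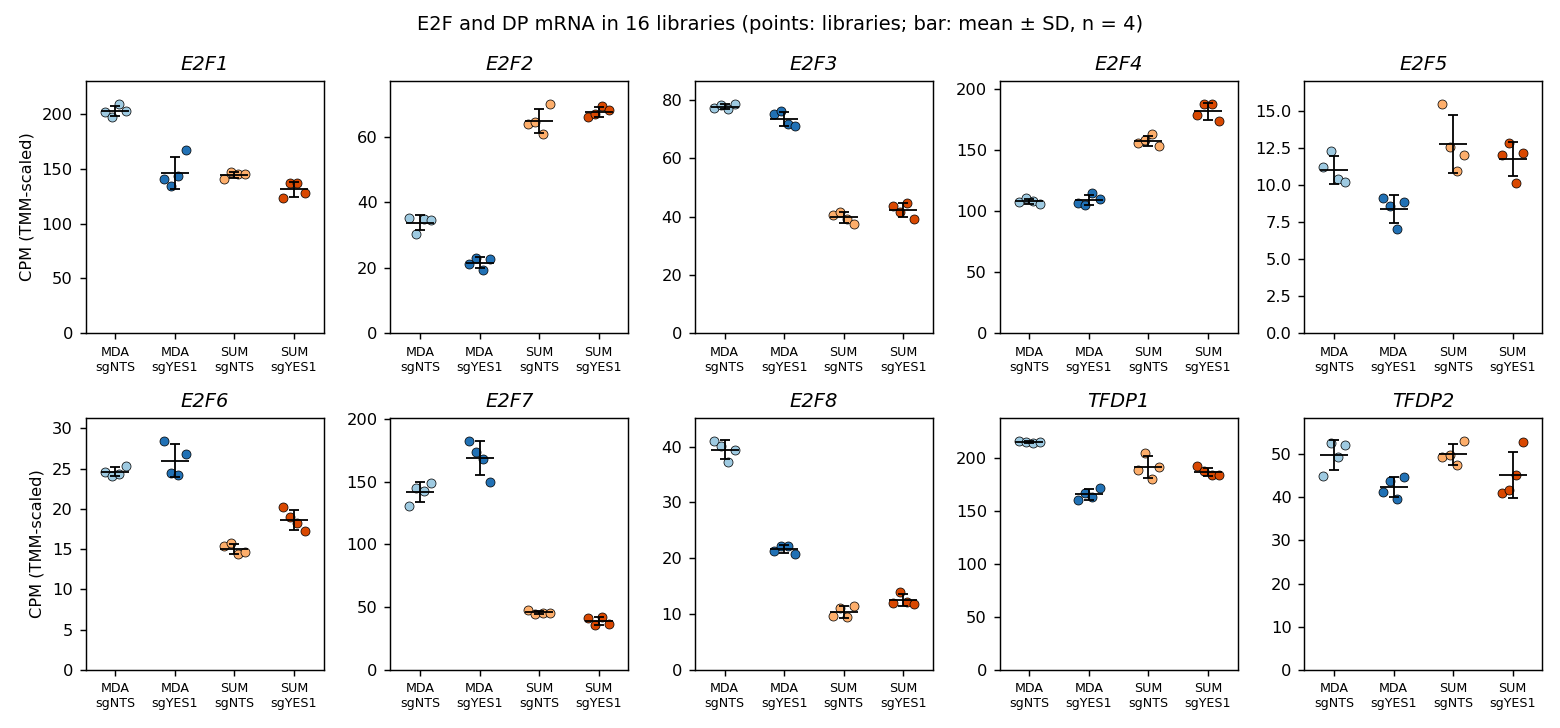
CPM of the 10 genes (y axis, starting at 0) in the 4 libraries of each group (points), with mean ± SD (n = 4). MDA and SUM stand for MDA-MB-231 and SUM159PT. E2F8 lies at 37.2 to 41.1 CPM in MDA-MB-231 sgNTS and at 20.8 to 22.2 CPM in sgYES1, while in SUM159PT all 8 libraries lie between 9.42 and 13.99 CPM.

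The sgNTS libraries of both lines differed most in the atypical repressors. E2F7 measured 142 ± 7.99 CPM in MDA-MB-231 and 45.8 ± 1.40 CPM in SUM159PT (n = 4 each), 3.13-fold lower in SUM159PT (log2 difference -1.65, SE 0.05, edgeR adjusted p = 1.71e-13). E2F8 measured 39.4 ± 1.66 and 10.4 ± 1.01 CPM, 3.83-fold lower (-1.94, SE 0.07, edgeR adjusted p = 2.11e-12). E2F6 was 1.66-fold lower in SUM159PT (-0.73). All libraries of one line lay beyond all libraries of the other for these 3 genes.

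The activators differed in both directions. E2F3 was 1.98-fold lower (-0.99) and E2F1 1.42-fold lower (-0.51) in SUM159PT, while E2F2 was 1.90-fold higher (0.93, from 33.7 ± 2.35 to 64.9 ± 3.79 CPM). E2F4, a repressor, was 1.44-fold higher in SUM159PT (0.53). TFDP1 was slightly lower (-0.19, edgeR adjusted p = 0.000509), and TFDP2 (-0.01, 95% interval -0.13 to 0.11) and E2F5 (0.19, interval -0.04 to 0.43) did not pass the test. The E2F5 difference passed without SUM159PT sgNTS replicate 3 (0.26, adjusted p = 0.0404). In all, 8 of 10 genes were called, 6 lower and 2 higher in SUM159PT, against 82.7% of the 15567 genes tested, so the count is near that of genes in general. The libraries did not overlap for these 8, against 77.6% of genes.

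**Figure D2:**
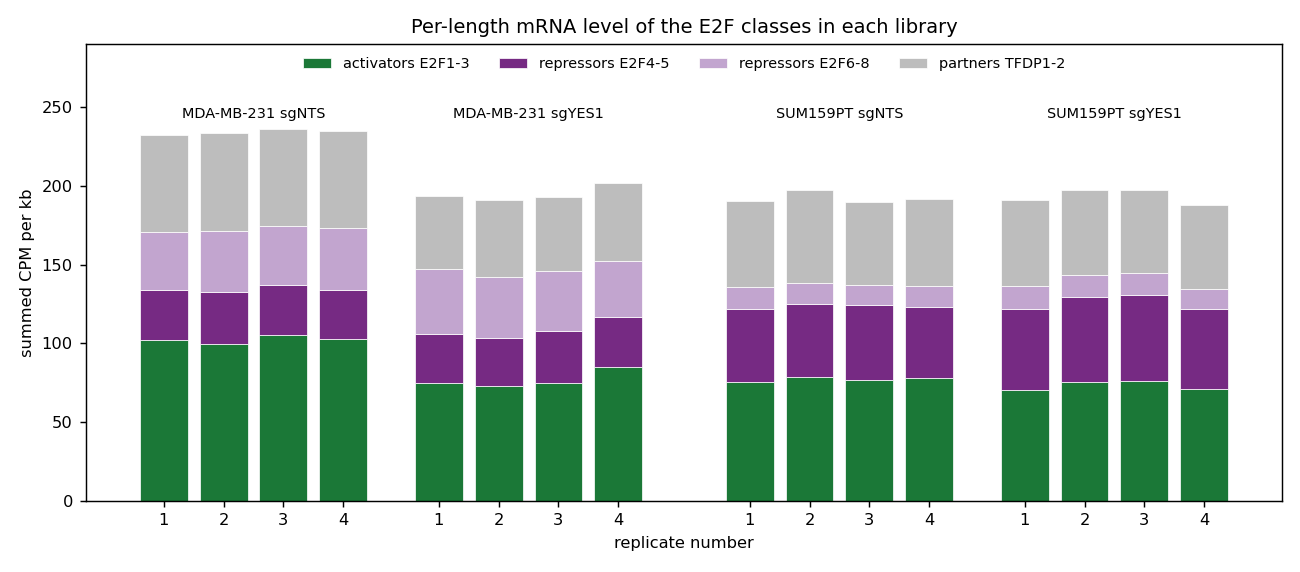
Summed CPM per kb (y axis, starting at 0) of the activators, both classes of repressors and the DP partners in each of the 16 libraries. The activators sum to 99.7 to 105 in MDA-MB-231 sgNTS and to 72.6 to 84.7 in sgYES1; in SUM159PT the repressors E2F6 to E2F8 sum to 12.8 to 14.4 in all 8 libraries.

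With the YES1 guide, MDA-MB-231 had lower mRNA of activators E2F1 and E2F2, of both DP partners, of E2F5 and of the repressor E2F8, and higher mRNA of the repressor E2F7. Of the 10 genes, 6 fell and 1 rose (edgeR quasi-likelihood test, adjusted p under 0.05), and the libraries of these 7 and of E2F3 lay beyond the controls without overlap, 8 in all. Over all 15427 genes tested, 42.8% were called, 22.1% downward and 20.8% upward, and 39.2% did not overlap between groups. The median log2 fold change was -0.31 over the 10 genes and 0.01 over all genes. In bulk RNA, fewer cells in the phase that expresses a gene and less RNA per cell cannot be told apart.

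E2F8, which represses genes of S phase, had the largest fold change of the family. It measured 41.1, 40.1, 37.2 and 39.4 CPM in sgNTS replicates 1 to 4 and 21.3, 22.2, 22.2 and 20.8 CPM in sgYES1. Every sgYES1 library was thus far below every control, and the level fell to 54.6% of the control (log2 fold change -0.87, SE 0.05, edgeR adjusted p = 2.00e-08). The gene (ENSG00000129173) spans bases 19224063 to 19241620 of the minus strand of chromosome 11 in hg38. An antisense gene that overlaps it, AC009652.2, had at most 3 counts in any library.

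E2F7, the other atypical repressor (ENSG00000165891, chromosome 12, 77021247 to 77065580, minus strand), moved the opposite way. Its sgNTS replicates held 130.5, 145, 143 and 149 CPM and its sgYES1 replicates 183, 174, 169 and 150.0 CPM. Replicate 4 of sgYES1 lay barely above the highest control. The level rose 1.19-fold (log2 fold change 0.25, SE 0.06, edgeR adjusted p = 0.00287). The per-length ratio of E2F7 to E2F8 went from 2.37 ± 0.197 to 5.13 ± 0.381 (SD, n = 4), with no overlap.

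E2F1, the activator best known for inducing S phase and also apoptosis, lies on the minus strand of chromosome 20 (ENSG00000101412, 33675683 to 33686404). It measured 202, 198, 209 and 203 CPM in sgNTS and 141, 134, 143 and 167 CPM in sgYES1. Replicate 4 of sgYES1 was the closest to the controls, as it was for E2F7. The change was -0.47 (SE 0.06, edgeR adjusted p = 1.01e-05), or 72.0% of the control level.

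E2F2, an activator that overlaps E2F1 and E2F3 in function (ENSG00000007968, chromosome 1, 23506430 to 23531220, minus strand), fell further in relative terms. It had 35.1, 30.2, 34.9 and 34.7 CPM in sgNTS and 21.1, 23.0, 19.4 and 22.6 CPM in sgYES1. The log2 fold change was -0.65 (SE 0.07, edgeR adjusted p = 3.62e-06), which left 63.6% of the control level. The remaining activator, E2F3 (ENSG00000112242, chromosome 6, 20401906 to 20493715, plus strand), whose a and b isoforms from separate starts are counted together here, did not pass. Its libraries had 77.0 to 78.8 CPM in sgNTS and 71.0 to 76.2 CPM in sgYES1, without overlap (-0.09, SE 0.04, edgeR adjusted p = 0.0871).

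TFDP1 encodes the main DP partner (ENSG00000198176, chromosome 13, 113584721 to 113641470, plus strand). Its sgNTS replicates were tight, at 216, 215, 215 and 215 CPM, and the sgYES1 replicates had 160.4, 167, 163 and 172 CPM. That is a fall to 76.8% (log2 fold change -0.38, SE 0.03, edgeR adjusted p = 6.20e-07). TFDP2, which encodes the second partner (ENSG00000114126, chromosome 3, 141944428 to 142149544, minus strand), had 45.0 to 52.7 CPM in sgNTS and 39.7 to 44.8 CPM in sgYES1. Its fall was smaller (-0.23, SE 0.06, edgeR adjusted p = 0.00492), and the highest sgYES1 library lay just under the lowest control. TFDP3, a further DP gene, had no count in any library.

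Of the repressors that work with pocket proteins, E2F5 fell and E2F4 did not pass the test. E2F4 (ENSG00000205250, chromosome 16, 67192169 to 67198918, plus strand) had 106 to 110.4 CPM in sgNTS and 105 to 115 CPM in sgYES1, a log2 fold change of 0.01 with a 95% interval of -0.07 to 0.09. E2F5 (ENSG00000133740) measured 11.2, 12.2, 10.4 and 10.2 CPM in sgNTS and 9.14, 8.56, 7.02 and 8.82 CPM in sgYES1 (-0.40, SE 0.10, edgeR adjusted p = 0.00451). The value of E2F5 carries a limit of counting. C8orf59 overlaps it on the opposite strand at a mean of 8.58 CPM over library totals, close to E2F5 itself, and no source consulted says whether counting used strand. C8orf59 had a log2 fold change of 0.17 (adjusted p = 0.278). E2F6 (ENSG00000169016, chromosome 2, 11444375 to 11466177, minus strand) had 24.1 to 25.4 CPM in sgNTS and 24.3 to 28.5 CPM in sgYES1, and did not pass (0.07, 95% interval -0.06 to 0.20). Its processed pseudogenes had at most 3 counts in a library.

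Of the 8 genes with a promoter window, E2F1, E2F2, TFDP1 and TFDP2 fell in MDA-MB-231, so holding an octamer and falling did not coincide throughout: E2F3 holds one and was not called, and TFDP2 holds none and fell.

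With the YES1 guide, SUM159PT had higher mRNA of the repressors E2F4, E2F6 and E2F8 and lower mRNA of the activator E2F1 and the repressor E2F7, with changes of at most 1.25-fold. Of the 10 genes, 3 rose and 2 fell (edgeR adjusted p under 0.05), and these 5 did not overlap between groups. Over all 14479 genes, 39.4% were called, 19.6% upward and 19.7% downward, and 35% did not overlap, so the count of 5 is near that of genes in general. The median log2 fold change was 0.02 over the 10 genes and -0.01 over all genes.

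E2F4 rose from 156, 158, 163 and 153 CPM in sgNTS to 178, 187, 187 and 173 CPM in sgYES1. All 4 sgYES1 libraries lay above all controls, and the rise was 1.16-fold (log2 fold change 0.21, SE 0.04, edgeR adjusted p = 0.000439). E2F6 had 15.3, 15.8, 14.4 and 14.7 CPM in sgNTS and 20.2, 19.0, 18.3 and 17.2 CPM in sgYES1. The difference of 1.25-fold (0.32, SE 0.08, edgeR adjusted p = 0.00349) was the largest in this line, on a gene of low level. E2F7 had 47.9, 44.6, 45.5 and 45.3 CPM in sgNTS and 41.0, 35.7, 42.1 and 36.1 CPM in sgYES1, which is 85.0% of the control level (-0.23, SE 0.06, edgeR adjusted p = 0.00558).

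E2F1 and E2F8 had calls that single libraries decided. E2F1 measured 140.4, 147, 146 and 145 CPM in sgNTS and 124, 137, 138 and 128 CPM in sgYES1 (-0.13, SE 0.04, edgeR adjusted p = 0.0264). Its groups did not overlap, but leaving out any one of sgNTS replicates 2, 3 and 4 and sgYES1 replicates 1 and 4 ended the call (adjusted p 0.0527 to 0.0898), as did scaling by library totals alone (0.0708). E2F8 had 9.58, 10.9998, 9.42 and 11.4 CPM in sgNTS and 11.99, 13.99, 12.2 and 11.8 CPM in sgYES1 (0.27, SE 0.10, edgeR adjusted p = 0.0346). Its groups were also apart, by a small gap, and leaving out any one of sgNTS replicates 1 and 3 and sgYES1 replicates 2 and 3 ended the call (adjusted p 0.0557 to 0.114), as did testing with no filter on low counts (0.0705). Without sgNTS replicate 3, which ends both calls, 3 of the 10 genes were called.

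The other 5 genes did not pass in SUM159PT, and the groups of each overlapped. E2F2 had 61.0 to 70.1 CPM in sgNTS and 66.0 to 69.6 CPM in sgYES1 (0.07, 95% interval -0.04 to 0.17), and E2F3 had 37.5 to 41.6 and 39.3 to 44.6 CPM (0.10, interval -0.03 to 0.23). TFDP1 had 180.4 to 205 and 184 to 192 CPM (-0.03, interval -0.12 to 0.07), so a fall of the size seen in MDA-MB-231 lies outside the interval. E2F5 had 10.9 to 15.5 and 10.1 to 12.8 CPM (-0.11, interval -0.33 to 0.12), beside 0.20 for the overlapping C8orf59 (adjusted p = 0.0835). TFDP2 had 47.5 to 53.2 CPM in sgNTS and 41.1, 41.6, 45.1 and 52.8 CPM in sgYES1 (-0.14, edgeR adjusted p = 0.117), with replicate 4 high in its group. Without that library the log2 fold change was -0.22 and passed (adjusted p = 0.00812).

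**Figure D3:**
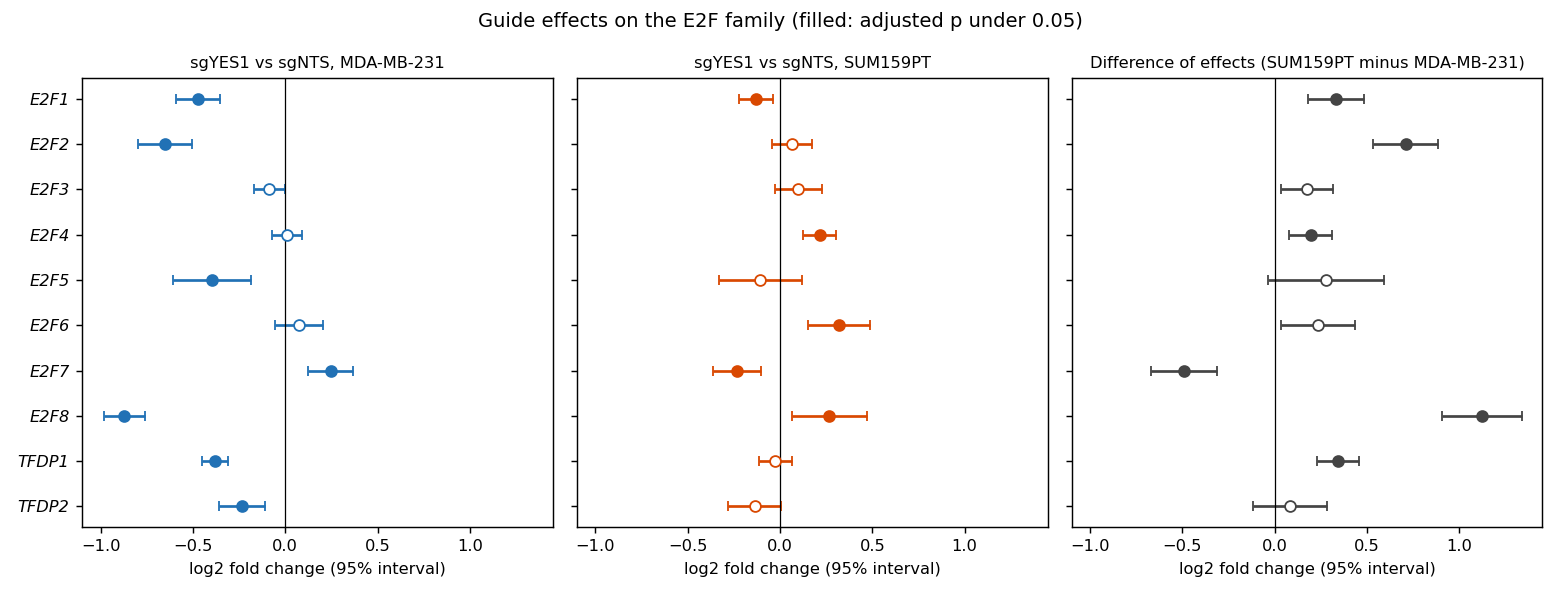
Log2 fold change of sgYES1 against sgNTS with its 95% interval (x axis) for each gene for MDA-MB-231, for SUM159PT and for the difference of both effects. Filled points have an adjusted p under 0.05; E2F8 is at -0.87 and 0.27 with a difference of 1.12, and E2F7 is the 1 gene whose difference is negative (-0.49).

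The guide effect itself differed between lines for 6 of the 10 genes by the interaction test, against 24.5% of 16640 genes. The difference (SUM159PT minus MDA-MB-231) was 1.12 for E2F8 (SE 0.10, edgeR adjusted p = 2.39e-08) and 0.71 for E2F2 (SE 0.08, edgeR adjusted p = 1.18e-06). It was 0.34 for TFDP1 and 0.33 for E2F1, the main DP partner and an activator (edgeR adjusted p = 4.92e-05 and 0.00156), and 0.19 for E2F4 (edgeR adjusted p = 0.0135). E2F7 alone had a negative difference that passed (-0.49, SE 0.09, edgeR adjusted p = 0.00016). E2F7 and E2F8 thus moved in opposite directions within each line and each moved in opposite directions between lines, where the E2F8 rise in SUM159PT is the call that ended without some libraries. E2F3 (0.17), E2F5 (0.28), E2F6 (0.23) and TFDP2 (0.08) did not pass (adjusted p 0.0656 to 0.588). The first 3 of these passed in some fits: E2F3 with DESeq2 (adjusted p = 0.0292) and without any of 8 single libraries (lowest 0.0189, without SUM159PT sgNTS replicate 2), E2F6 without any of 5 (lowest 0.0372, without that same library) and E2F5 without SUM159PT sgNTS replicate 1 (0.43, adjusted p = 0.0325).

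Set side by side, activators and repressors did not divide by direction. In MDA-MB-231, 2 of 3 activators fell and 0 rose, 1 of 2 pocket-protein repressors fell, and of the 3 other repressors 1 fell, 1 rose and 1 was not called. In SUM159PT, 1 of 3 activators fell, 1 of 2 pocket-protein repressors rose, and of the 3 others 2 rose and 1 fell. The E2F1 and E2F8 calls in SUM159PT are those that single libraries decided. The pocket-protein repressor that fell in MDA-MB-231 is E2F5, whose counting has the limit given above. The summed per-length level of the activators was 102 ± 2.14 CPM per kb in sgNTS and 76.7 ± 5.45 in sgYES1 of MDA-MB-231 (SD, n = 4), while that of E2F6 to E2F8 was 38.1 ± 1.19 and 38.4 ± 2.37. The activators therefore went from 2.69 ± 0.115 to 2.01 ± 0.263 times the sum of E2F6 to E2F8, with no overlap (2.58 to 2.79 and 1.81 to 2.39). Relative to E2F4 and E2F5 they went from 3.20 ± 0.117 to 2.41 ± 0.164. Single genes made up most of these sums. E2F1 had 81.1 ± 1.91 and 58.5 ± 5.75 CPM per kb in sgNTS and sgYES1, and E2F4 30.1 ± 0.545 and 30.4 ± 1.21. Within the sum of E2F6 to E2F8, E2F7 went from 22.5 to 26.8 and E2F8 from 9.52 to 5.22 CPM per kb, opposite moves that the sum does not show.

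In SUM159PT the activators were 5.74 ± 0.152 times E2F6 to E2F8 in sgNTS and 5.33 ± 0.309 times in sgYES1, ranges of 5.53 to 5.90 and 4.88 to 5.56 that overlapped. Relative to E2F4 and E2F5 the activators went from 1.68 ± 0.0567 to 1.39 ± 0.0295, without overlap. The ratio of E2F1 to E2F4 was lower with the YES1 guide in both lines, at 1.93 ± 0.178 against 2.69 ± 0.0893 for MDA-MB-231 and at 1.04 ± 0.0289 against 1.32 ± 0.0380 for SUM159PT. In the first line E2F1 was the gene of the pair that was called, and in the second both were, with E2F4 higher and E2F1 lower. These sums and ratios are descriptions, to which no test was applied.

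**Figure D4:**
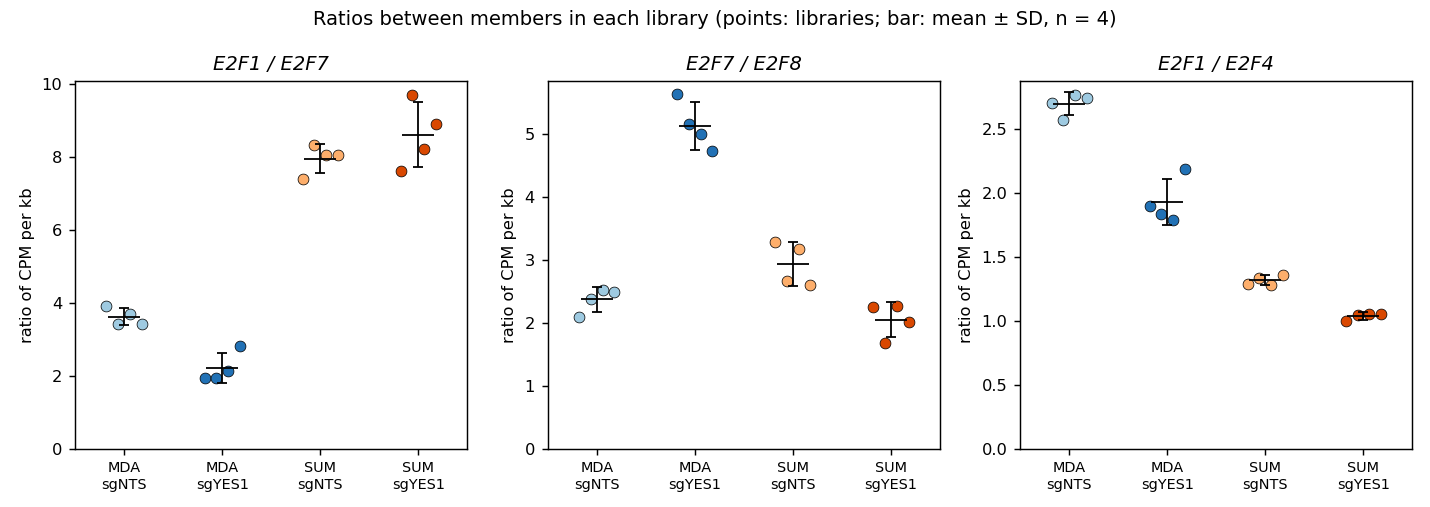
Ratio of per-length levels (y axis, starting at 0) of E2F1 to E2F7, E2F7 to E2F8 and E2F1 to E2F4 in each library (points), with mean ± SD (n = 4). The ratio of E2F7 to E2F8 is 2.09 to 2.52 in MDA-MB-231 sgNTS and 4.73 to 5.63 in sgYES1, and 2.60 to 3.28 and 1.67 to 2.26 in SUM159PT.

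Across the 16 libraries, after the mean of each line was subtracted from log2 CPM, TFDP1 varied most like LBR, which encodes the lamin B receptor (Pearson r = 0.99), and like the mitotic checkpoint kinase gene BUB1B and the mitotic kinase gene PBK (0.98 each). E2F8 was most like SLC29A1, a nucleoside transporter (0.98), CBX2, a Polycomb subunit (0.97), and NCS1, a calcium sensor (0.96). E2F1 was most like EEF1A2, APOBEC3B and DTYMK, the thymidylate kinase (0.96 each). For E2F7 the nearest were USP53, JMY, a cofactor of p53, and INPP4B, a lipid phosphatase (0.93 each). Within the family, r was 0.92 for TFDP1 and E2F2, 0.91 for E2F2 and E2F8, 0.90 for TFDP1 and E2F1, and -0.75 for E2F7 and E2F8. These are descriptions over libraries that share line, guide and depth, chosen from 9515 protein-coding genes. The difference between guides was not subtracted, so these r values include the guide effects given above.

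Genes that E2F proteins are known to activate for DNA replication mostly fell in MDA-MB-231, while in SUM159PT as large a share was called as among genes in general. Of 56 tested, 53 fell and 0 rose in MDA-MB-231, where 22.1% of all genes fell (median log2 fold change -0.36, against 0.01 over all genes), and 52 to 54 fell with single libraries left out. In SUM159PT 13 rose, 9 fell and 34 were not called (median -0.02, against -0.01), and 39.4% of all genes were called in that line. The difference of effects passed for 42, all higher in SUM159PT, a direction that 12.7% of all genes took. The smallest p in MDA-MB-231 was that of RRM2, a ribonucleotide reductase subunit (-0.70), followed by MYBL2, the B-Myb factor (-0.67), and the helicase subunits MCM6 (-0.61) and MCM4 (-0.41). In SUM159PT the smallest were CDC25A, the phosphatase that activates CDK2 (0.56), FEN1, the flap nuclease (0.47), USP1, a deubiquitinase (-0.32), and CCNE1, cyclin E1 (0.63). The octamers above stood in the promoter windows of 26 of 48 such genes with a window, against the 3.99% of all genes given above. These genes were listed as known E2F targets, so that high share follows from the choice and is not a separate result. The list was written with earlier results of these samples known, and its fall in MDA-MB-231 is not independent of them.

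Of the pocket proteins, cyclins, kinases and inhibitors of the retinoblastoma pathway, 16 were tested in MDA-MB-231, where 9 fell, 2 rose and 5 were not called, against 22.1% of all genes lower and 20.8% higher. Of 15 tested in SUM159PT, 3 fell, 7 rose and 5 were not called, against 19.7% lower and 19.6% higher. CDKN1A, which encodes the CDK inhibitor p21, rose in both, from 152 ± 3.22 to 232 ± 9.53 CPM (0.61) in MDA-MB-231 and, in SUM159PT, from 61.2 ± 4.46 to 97.4 ± 5.31 CPM (0.68, n = 4 each). CDKN1C, the related inhibitor p57, also rose in both (1.12 and 0.70). The CDK inhibitors did not all rise, since CDKN2D, a further one, fell in both lines. Its log2 fold change was -0.61 in MDA-MB-231 (edgeR adjusted p = 1.35e-06) and -0.29 in SUM159PT (edgeR adjusted p = 0.0204). CDK2 fell in MDA-MB-231 (-0.41) and had -0.05 in SUM159PT (not called). CCNE2, cyclin E2, fell in MDA-MB-231 (-0.70) and rose in SUM159PT (0.37, edgeR adjusted p = 0.0437), a difference of 1.06 (edgeR adjusted p = 4.92e-05). CCNE1 had -0.16 in MDA-MB-231 (not called), CCND1, cyclin D1, had -0.10 and 0.29 (both called), and CDK4 had -0.06 and 0.08 (neither called). CDK6 was called in SUM159PT only (-0.34 there, -0.13 in MDA-MB-231), and its difference between lines did not pass (edgeR adjusted p = 0.149).

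Among the pocket protein genes themselves, RB1 fell in MDA-MB-231 from 92.4 ± 6.04 to 67.6 ± 2.16 CPM (-0.46) and was not called in SUM159PT (-0.09). RBL1, the partner of E2F4 that encodes p107, fell in MDA-MB-231 (-0.37) and was not called in SUM159PT (0.10), and both differences between lines passed (edgeR adjusted p = 0.000625 and 0.000189). RBL2, which encodes p130, fell in both (-0.31 and -0.35). Of 9 genes of the MuvB core, its B-Myb-type factors and the pocket proteins that join it, 7 fell in MDA-MB-231 (22.1% of all genes), 4 fell in SUM159PT (19.7% of all genes), and 0 rose in either line. The lists overlap, so their counts are not separate. MYBL2 and RBL1 are also counted among the replication genes, and RBL1 and RBL2 among those of the retinoblastoma pathway. CCNE1 and CCNE2 are also counted in both of those lists. Of 10 genes that control E2F proteins after translation, 7 fell and 0 rose in MDA-MB-231, and 4 rose and 0 fell in SUM159PT. The shares of all genes in those directions were 22.1% and 19.6%. In SUM159PT the share of these genes called in either direction, like that of the MuvB genes, was near the 39.4% of all genes. Among the genes that act after translation, SKP2, a ubiquitin ligase subunit for E2F1, fell in MDA-MB-231 (-0.55) and had -0.13 in SUM159PT (not called). CCNF, cyclin F, which marks E2F proteins for degradation, fell in MDA-MB-231 (-0.41) and rose in SUM159PT (0.40), and FZR1, an activator of the anaphase-promoting complex, had -0.13 and 0.16 (both called).

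**Figure D5:**
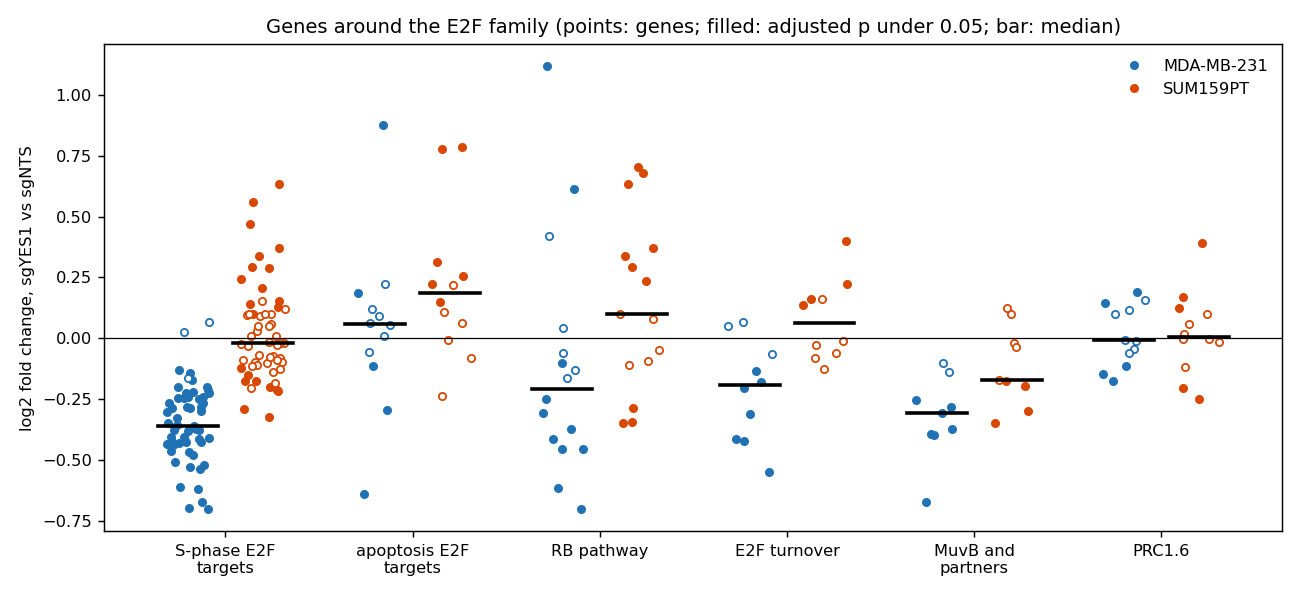
Log2 fold change of sgYES1 against sgNTS (y axis) for the tested genes of each group (points; filled where adjusted p is under 0.05) with the median (bar), in MDA-MB-231 and SUM159PT. The S-phase targets have medians of -0.36 and -0.02.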

How the data were processed

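For each cell line the authors deposited a table of raw, unnormalized read counts for every gene. The submitters' processing notes name HISAT2 2.0.5 as aligner, featureCounts 1.5.0-p3 as counter and the hg38 build; whether strand was used and how multi-mapping reads were treated is not stated in them. Columns were matched to samples by line, guide and replicate number.

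The main test was edgeR 4.0.16's quasi-likelihood F-test (R 4.3.3) with TMM factors; filterByExpr (minimum count 10, minimum total 15) chose the genes. Guide effects were fitted within a line (8 libraries), the interaction on all 16, and the control comparison on the 8 sgNTS libraries. P-values are two-sided, adjusted by Benjamini-Hochberg over all genes tested, and called under 0.05. CPM values share 1 TMM scaling over 16 libraries, and log2 CPM has a prior count of 2. SE is the size of the fold change divided by the root of F. Gene lengths are those of the deposited tables. Alternatives were DESeq2 1.42.0, other scalings and filters, a replicate block, a joint fit, and leaving out each library. The code was tested on simulated data.

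The rule for named genes allowed all 10 members, YES1, set RB-pathway genes and up to 4 genes of each list with the smallest p in a line. It also allowed the 3 genes most alike to each member in pattern, among protein-coding genes averaging 5 CPM or more per line. Not all of these are named in the text. The genes most alike are given only for TFDP1, E2F8, E2F1 and E2F7. The members and lists were chosen with earlier results of these data known. Of 143 list symbols, 142 matched 1 gene.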

Additional observations from a re-analysis of the deposited data

Results flagged for a closer look

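E2F2 in MDA-MB-231 sgNTS replicate 2 was low, at 30.2 CPM against 34.7 to 35.1 CPM in the other 3 libraries of its group. The gap was 0.919 of the range of the group, past Dixon's 95% value of 0.829 for 4 samples. This was 1 of 44 groups of 4 examined (10 genes and YES1 in 4 groups), and chance gives about 1 in 20. Without that library the E2F2 log2 fold change in MDA-MB-231 was -0.71.

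The guide effect differed between lines for 6 genes by the interaction test. The difference of log2 fold changes (SUM159PT minus MDA-MB-231) was 0.33 for E2F1, 0.71 for E2F2, 0.19 for E2F4, -0.49 for E2F7, 1.12 for E2F8 and 0.34 for TFDP1. The effects in MDA-MB-231 and SUM159PT were -0.87 and 0.27 for E2F8, 0.25 and -0.23 for E2F7, -0.65 and 0.07 for E2F2, -0.47 and -0.13 for E2F1, 0.01 and 0.21 for E2F4, and -0.38 and -0.03 for TFDP1.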

How the results depend on the processing

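In MDA-MB-231, 7 of the 10 genes were called under each alternative run, 1 higher and 6 lower. In SUM159PT, 5 were called under each alternative on all libraries except library totals alone (without E2F1) and no filter on low counts (without E2F8), where 4 were, and 3 to 5 with single libraries left out, the 3 without sgNTS replicate 3. Among the 10 genes, directions changed only for 3 that were not called in the comparison concerned. E2F4 in MDA-MB-231 had a log2 fold change of -0.0189 with no filter, and -0.0166 to 0.0243 with single libraries left out. TFDP1 in SUM159PT had 9.91e-05 with library totals alone, and -0.0466 to 0.00809 with single libraries left out. TFDP2 between controls had -0.0630 to 0.0270 with single libraries left out. Scaling by library totals alone moved the share of upward calls to 59.8% against 48.5% (MDA-MB-231) and to 56.7% against 49.9% (SUM159PT). The cause of these changes was not tested.

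Replicate numbers did not pair the samples: the correlation of same-numbered libraries ran from -0.34 to 0.15. With the replicate block, 5901 genes were called in MDA-MB-231, 5886 in SUM159PT, 3817 for the interaction and 12753 between controls, and 7, 5, 6 and 8 of the 10 genes. At this depth E2F5 and, in SUM159PT, E2F8 are the least precise (SE about 0.10).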

Other observations

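Genes that E2F1 is known to induce in apoptosis did not move as 1 group. Of 12 tested in each line, 2 rose and 3 fell in MDA-MB-231 and 6 rose and 0 fell in SUM159PT. The 12 were not the same genes in both lines. HRK, at most 0.240 CPM in MDA-MB-231, was tested for a guide effect only in SUM159PT. TP53INP1, at most 0.304 CPM in SUM159PT, was tested only in MDA-MB-231. Over all genes 42.8% were called in MDA-MB-231, so the count there is near that of genes in general, and 19.6% rose in SUM159PT. BBC3, which encodes the BH3-only protein PUMA, rose in MDA-MB-231 (log2 fold change 0.87, SE 0.09) and had -0.24 in SUM159PT, where it was not called. TP73, which encodes the p53 relative p73 and is a classical E2F1 target, fell in MDA-MB-231 from 11.8 ± 1.00 to 7.61 ± 0.261 CPM (-0.64) and had -0.01 in SUM159PT, not called. The BH3-only genes HRK and BCL2L11 rose in SUM159PT from 5.06 ± 1.04 to 8.60 ± 0.767 CPM (0.79) and from 4.32 ± 0.812 to 7.37 ± 0.704 CPM (0.78).

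Partners of E2F6 in the Polycomb complex PRC1.6 were called about as often as genes in general (42.8% in MDA-MB-231, 39.4% in SUM159PT). Of 12 tested, 2 rose and 3 fell in MDA-MB-231 and 3 rose and 2 fell in SUM159PT, with medians of -0.01 and 0.01. L3MBTL2, a subunit of that complex, rose in SUM159PT (0.39, SE 0.06) and had 0.10 in MDA-MB-231, not called. YAF2, also of this list, fell in SUM159PT (-0.25, SE 0.08, edgeR adjusted p = 0.0202), so the partners did not rise together with E2F6. Of 5 germline genes known as E2F6 targets, 2 could be tested, STAG3 and TUBA3D, and neither was called in either line (0.36 and 0.42 in MDA-MB-231, 0.44 and 0.17 in SUM159PT). Both had group means of at most 1.87 CPM and SEs of 0.19 to 0.31, so the lack of a call says little. MIR17HG, the host of a microRNA cluster that targets E2F genes, had 0.15 (SE 0.31) and 0.03 (SE 0.18), neither called. Its group means were also low, at 1.39 to 3.91 CPM. MCM7, host of a related cluster, fell in MDA-MB-231 (-0.30) and had -0.02 in SUM159PT, not called.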
